A study of Mus musculus with 12 samples.

Results

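The data are 4 of the study's 12 microRNA arrays: 2 of untreated mouse embryonic fibroblasts (MEFs) that lack XBP1, and 2 of the same knockout cells after 12 h in 2 ug/mL tunicamycin. They were chosen by their sample titles, XBP1KO_UT and XBP1KO_Tun_12hr, each with rep1 and rep2. The other 8 arrays held the knockout cells after 24 h and wild type (XBP1WT) MEFs untreated or treated for 12 h or 24 h, and all cells were of the C57BL/6 background. The design text speaks of a pair of independent experiments for each time and names miRNAs that respond to 12 h of tunicamycin through XBP1 as what was sought. The sources used here do not give how XBP1 was disrupted or whether each genotype was 1 cell line. The p-values rest on a spread pooled over the pairs of arrays in all 6 groups, the 24 h pairs included, and measure nothing beyond it. With only 2 arrays a group, all estimates are imprecise.

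Tunicamycin stops the step by which N-linked sugars are added to new proteins. Unfolded proteins then build up inside the endoplasmic reticulum, and the unfolded protein response starts. Of the sensors of that response, IRE1 is an endonuclease that splices Xbp1 mRNA into the form that encodes an active transcription factor, and it can also cleave other RNAs. Cells without XBP1 keep IRE1 and the other sensors, PERK and ATF6, but not the XBP1 transcription programme. A microRNA (miRNA) is a short RNA that represses mRNAs matching its seed, bases 2 to 8, so that miRNAs with 1 seed are treated as a family.

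Some families that share a seed fell in all or nearly all tested members, and sequences of 5 such families are printed first, with the seed in capitals. Other shared-seed families did not: among the 9 let-7 miRNAs, for example, 2 fell. Mature sequences are from RefSeq (GRCm38.p6), where 192 of the 256 tested miRNAs were matched by name. The first set is the miR-15 and miR-16 family, which is known for holding back cyclins and the cell cycle, and in which 3 members fell to the floor of the assay or near it. miR-195 and miR-497 are neighbours on chromosome 11 (chr11:70235062-70235082 and chr11:70234730-70234751, plus strand), and miR-322 and miR-503 are neighbours on chromosome X (chrX:53054306-53054327 and chrX:53054027-53054049, minus strand). The seed of miR-503 differs from the others in its last base.
miR-15a: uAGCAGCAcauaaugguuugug
miR-16: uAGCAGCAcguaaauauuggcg
miR-195: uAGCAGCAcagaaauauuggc
miR-497: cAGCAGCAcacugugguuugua
miR-322: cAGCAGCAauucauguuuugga
miR-503: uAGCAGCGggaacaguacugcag

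The second set holds other families whose tested members with a matched sequence all fell: miR-146, which is induced by NF-kB and represses its upstream adaptors; miR-148 and miR-152; miR-26, a repressor of Ezh2; and miR-30.
miR-146a: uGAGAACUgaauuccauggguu
miR-146b: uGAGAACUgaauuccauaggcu
miR-148a: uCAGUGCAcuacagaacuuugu
miR-152: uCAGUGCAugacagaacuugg
miR-26a: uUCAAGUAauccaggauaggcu
miR-26b: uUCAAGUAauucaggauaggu
miR-30a: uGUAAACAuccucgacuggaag
miR-30c: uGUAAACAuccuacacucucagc
miR-30e: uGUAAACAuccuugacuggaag

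The third set holds single miRNAs the results turn on. miR-210 is the classical hypoxia miRNA and miR-21 the brightest one in these cells. miR-155 is known from immune cells. miR-211 and miR-204 share a seed. miR-346 has been described as a target of XBP1, and miR-877* comes from a mirtron, an intron that is folded and spliced into a precursor.
miR-210: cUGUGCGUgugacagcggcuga
miR-21: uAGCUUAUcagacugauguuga
miR-155: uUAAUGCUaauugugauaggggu
miR-211: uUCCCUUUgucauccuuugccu
miR-204: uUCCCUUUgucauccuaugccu
miR-346: uGUCUGCCcgagugccugccucu
miR-877*: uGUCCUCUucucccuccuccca

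The arrays themselves differed between the groups before any miRNA was compared. The processed signal summed over all mouse miRNAs was 184245 and 185591 in the untreated arrays and 40327 and 78153 at 12 h, and 210 mouse miRNAs were detected on 1 untreated array and 12 more on the other, against 200 and 194 at 12 h. Each array was therefore multiplied by a factor that equalised its 75th percentile over the 95 miRNAs detected on all 12 arrays. These factors were 0.420 and 0.415 for the untreated arrays and 2.27 and 0.931 at 12 h. The 2 spike-in RNAs that the file headers name as labelling controls also gave less signal at 12 h, 41.5 and 19.4 against 145.5 and 60.8 for 1 of them and 26.8 and 13.0 against 84.6 and 37.4 for the other. Other control probe sets differed. dmr_3 gave 2052 and 571 at 12 h against 576 and 609 untreated, and dmr_6 gave 616 and 177 against 181 and 210. Both were thus higher on the first 12 h array only. The controls hur_1 and hur_2 were lower on both 12 h arrays. All untreated arrays were on 1 slide and all tunicamycin arrays on another, and no scan held both. The effects of slide, scan and treatment cannot be told apart in any comparison below. The cells held the miRNAs of fibroblasts: 11 of 12 listed mesenchymal markers were detected, while no listed epithelial marker (of 7) and no endothelial one (of 2) was detected on any of the 4 arrays.

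All values below are scaled signals in the scanner's intensity units, summed over a miRNA's probes. Signals under 13.1, the 5th percentile of detected values, were set to that floor, and a difference is the 12 h mean minus the untreated mean of log2 scaled signals. Tests are limma's moderated test across the 256 miRNAs detected on both arrays of at least 1 of the 6 groups, with Benjamini-Hochberg adjusted p-values, and a miRNA is said to rise or fall where the adjusted p was under 0.05. A miRNA not detected in the untreated knockout entered through another group, and a miRNA at the floor on both untreated arrays could not fall. The pooled spread comes from all 6 groups. Arrays set to the floor add none, so the SE and p of such miRNAs are made too small. In bulk RNA, fewer cells that make a miRNA and less of it per cell cannot be told apart.

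Many miRNAs changed at 12 h, on this scale about as many upward as downward. Of 256 miRNAs tested, 126 passed the threshold (percent called, 49.2), 61 of them higher (23.8) and 65 lower (25.4). The rises were the larger changes: 52 of 61 were over 4-fold and 26 over 16-fold, against 10 and 1 of the 65 falls. The rises mostly began at the bottom of the scale, since 38 of the 61 were at the floor on both untreated arrays. Where all 4 arrays gave a signal over the floor (149 miRNAs), there were 21 rises (14.1%) and 46 falls (30.9%), and the median difference was -0.36. These 149 leave out 40 rises and 19 falls in which at least 1 array was at the floor. Within the 149 the direction went with the untreated level. Of 46 miRNAs with an untreated signal over 256, 20 fell and 1 rose (median -0.65). Of 50 with a signal of 64 to 256, 23 fell and 8 rose (median -0.64). Of 53 with a signal under 64, 3 fell and 12 rose (median 0.34). The 149 leave out a dim miRNA that fell to the floor but keep one that rose. This choice favours rises among the dimmest, so the trend holds only within the 149. Outside them, 22 miRNAs were at the floor on both 12 h arrays but not on both untreated ones, and 17 of these fell. The untreated arrays differed from each other by a median of 0.08 on the log2 scale over these 149, and the 12 h arrays by 0.28. Both 12 h arrays lay above both untreated arrays for 94 miRNAs (36.7%) and below them for 107 (41.8%).

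How many rose and how many fell depends on the scaling. The median over all 256 was 0.00 as scaled here, -0.54 after quantile normalization, -0.56 with the percentile taken over all mouse miRNAs and -1.53 with no scaling. The calls then split into 58 higher and 105 lower, 56 and 100, and 39 and 157. With normexp background correction, which adds 50 to every probe before the arrays are scaled, the split was 164 higher and 19 lower. That setting turned 24 of the named miRNAs from below 0 to above it, miR-497 (0.10), miR-195 (0.24), miR-503 (0.46), miR-152 (0.40) and miR-100 (0.40) among them. With the offset taken off after the correction, miR-148b (0.29), miR-362-5p (0.19) and miR-542-5p (0.24) still lay above 0. The rises were seen in the unscaled signal too: 55 of the 61 were above both untreated arrays on both 12 h arrays, although the untreated arrays were brighter in total. All probes moved the same way for 57 of 60 risen and 65 of 65 fallen miRNAs that had more than 1 probe.

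**Figure D1:**
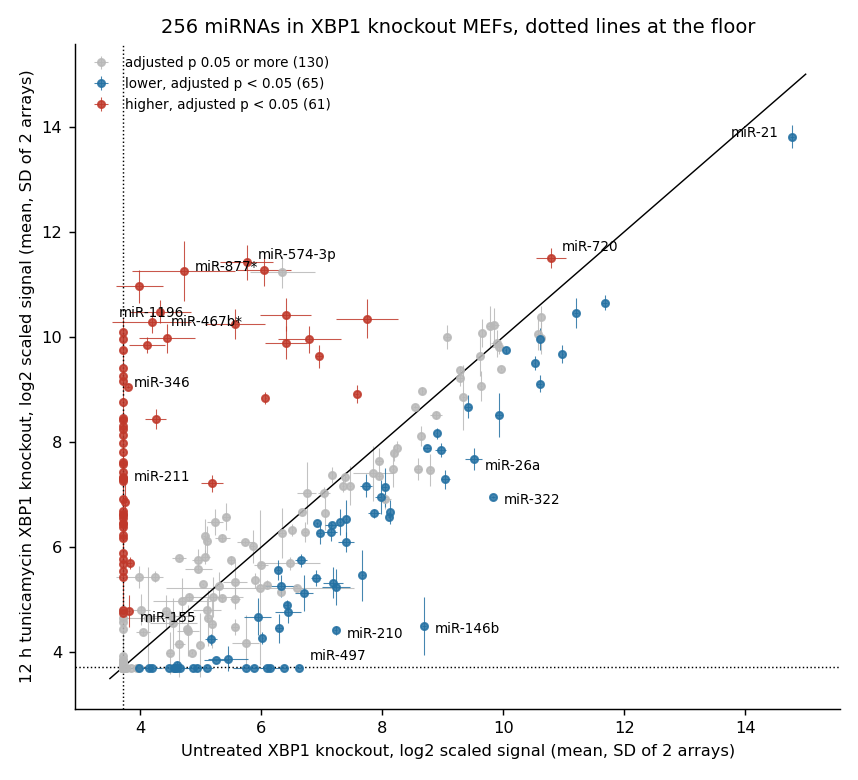
Mean log2 scaled signal of 256 miRNAs in XBP1 knockout MEFs, untreated on the x axis and after 12 h of tunicamycin on the y axis, with bars for the SD of 2 arrays. The 61 risen miRNAs (red) stand mostly on the dotted line that marks the floor of the untreated arrays, and the 65 fallen ones (blue) lie below the diagonal from the dim to the bright end.

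The miR-15 and miR-16 seed family fell. Of its 7 members tested, 6 passed the threshold, all lower, with a median difference of -2.04. Over all 256, 25.4% fell and the median was 0.00. Of the 4 members over the floor on all 4 arrays, 3 fell, with a median of -0.79. Of the 149 such miRNAs, 30.9% fell and the median was -0.36. miR-497 gave 97.6 and 100.5 in the untreated arrays and was at the floor on both 12 h arrays (12.9 and 11.0). That is a fall of at least 7.35-fold (log2 difference -2.92 ± 0.23 SE, adjusted p = 0.00015). Its neighbour miR-195 went the same way, from 80.2 and 85.5 to under the floor on both arrays, at least 6.15-fold (log2 difference -2.66 ± 0.22 SE, adjusted p = 0.00016). The untreated pairs hardly differed, and no 12 h array came near them.

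miR-322, the brightest of the members that changed over 4-fold, gave 896 and 927 untreated and 125.3 and 123 at 12 h, 7.35-fold lower (log2 difference -2.88 ± 0.32 SE, adjusted p = 0.00058). miR-503, made with it from 1 X-linked cluster and known to accumulate as cells leave the cycle, gave 48.3 and 59.7 untreated and no signal over background at 12 h, at least 3.99-fold lower (log2 difference -2.04 ± 0.11 SE, adjusted p = 2.3e-05). The groups were far apart for these 4 miRNAs, and at 12 h all but miR-322 were at the floor, where no spread can be seen. The members with the same seed that are made elsewhere moved less: miR-15a went from 698 and 665 to 457 and 367 (log2 difference -0.74 ± 0.21 SE, adjusted p = 0.0231), a call that was lost in 3 of 12 fits that each left out 1 array (adjusted p up to 0.13). To complete the family, miR-16 went from 414 and 437 to 239.5 and 234 (log2 difference -0.85 ± 0.24 SE, adjusted p = 0.0239), and miR-15b, the member that did not pass, from 996 and 1010.0 to 682 and 664 (log2 difference -0.58 ± 0.20 SE, adjusted p = 0.0505). So the 6 members with the seed AGCAGCA spanned differences of -2.92 to -0.58.

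miR-146b had the largest fall of all. It gave 407 and 422 untreated and 29.7 and 17.4 at 12 h, 18.2-fold lower (log2 difference -4.19 ± 0.41 SE, adjusted p = 0.00033). The 12 h arrays differed from each other by more than the untreated ones but stayed an order of magnitude below them. miR-146a, which has the same seed, went from 97.5 and 113 to 41.5 and 29.6 (log2 difference -1.58 ± 0.51 SE, adjusted p = 0.0374). Its call was lost with the floor at the 1st percentile of detected signals and was lost in 8 of 12 fits that each left out 1 array (adjusted p up to 0.17), with the same direction in each. miR-210 gave the smallest p of the comparison among miRNAs above the floor on all 4 arrays: 148 and 152.3 untreated against 22.3 and 20.5 at 12 h, 7.03-fold lower (log2 difference -2.81 ± 0.11 SE, adjusted p = 4.2e-06). It was, however, at the floor on both 12 h wild type arrays. These add no spread to the pooled estimate, so the SE and p of miR-210 are made too small.

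**Figure D2:**
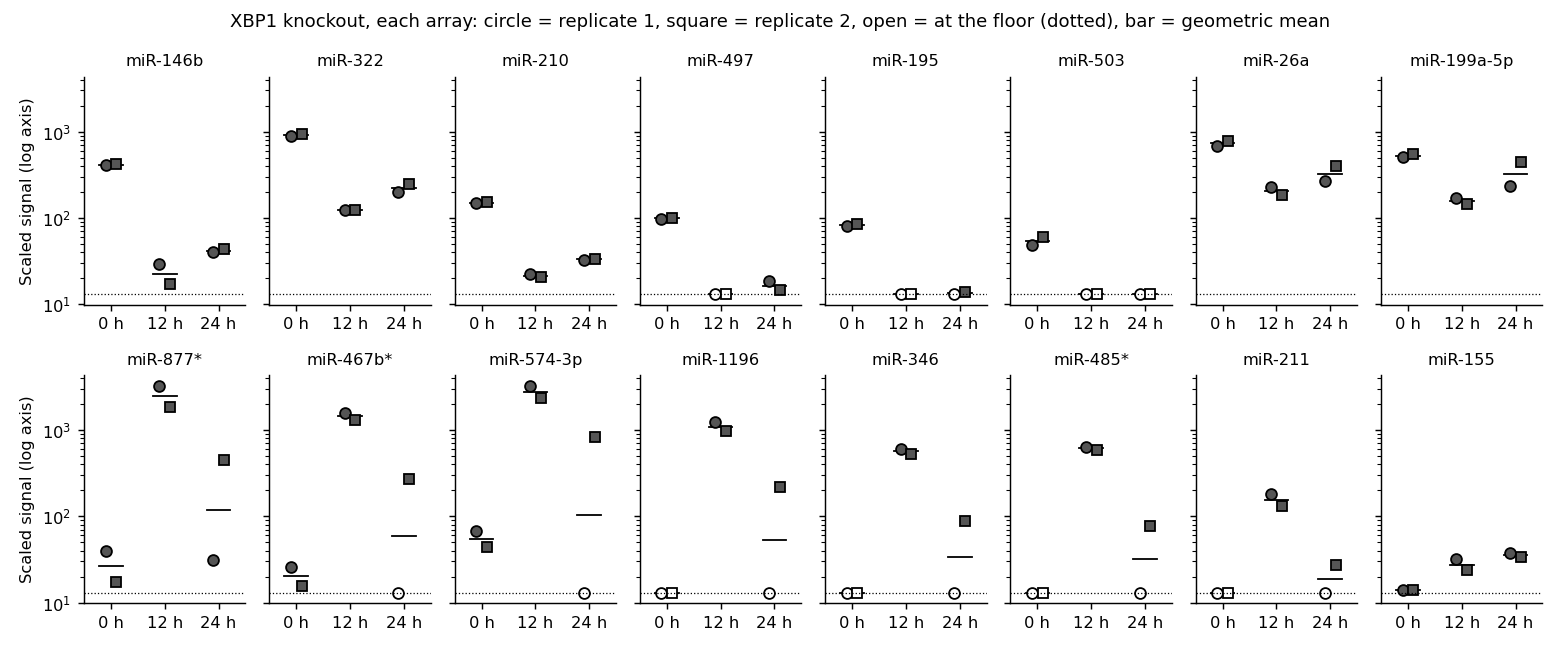
Scaled signal (log axis) of 8 miRNAs that fell and 8 that rose in XBP1 knockout MEFs, at 0 h, 12 h and 24 h of tunicamycin. Each point is 1 array, open points are at the floor, and the bar is the geometric mean of the pair. The fallen miRNAs have 12 h points below the 0 h points, the risen ones have both 12 h points above the 0 h points, and at 24 h the replicates of the risen miRNAs other than miR-155 stand apart.

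MiRNAs of the mesenchymal programme fell together with these. Of the 10 fibroblast markers tested, 9 fell and none rose (median -1.21), where 25.4% of all 256 miRNAs fell and the median was 0.00. The 256 include miRNAs at the floor untreated, which could not fall. Of the 9 markers over the floor on all 4 arrays, 8 fell (median -1.12), where 30.9% of the 149 such miRNAs fell and the median was -0.36. Several markers also stand in the family lists below. The transcript Dnm3os gives miR-199a and miR-214, and of 5 miRNAs of the miR-199 and miR-214 list, 4 fell (median -1.30). miR-199a-5p gave 511 and 546 untreated and 170.2 and 144 at 12 h (log2 difference -1.76 ± 0.29 SE, adjusted p = 0.00252). From its other arm, miR-199a-3p went from 2022 and 2004 to 885 and 751 (log2 difference -1.30 ± 0.26 SE, adjusted p = 0.0054). miR-214 went from 998 and 945 to 448.8 and 298 (log2 difference -1.41 ± 0.35 SE, adjusted p = 0.0127), and miR-199b* from 479.6 and 523 to 245 and 216 (log2 difference -1.12 ± 0.21 SE, adjusted p = 0.00412). Of these 4, miR-214 had a call that was lost in 3 of 12 fits that each left out 1 array (adjusted p up to 0.083). In these 4 the untreated arrays hardly differed from each other, and both 12 h arrays were far below them.

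miR-143, known from smooth muscle and mesenchymal cells, went from 134 and 169 to 44.8 and 32.0 (log2 difference -1.99 ± 0.28 SE, adjusted p = 0.00152). miR-152, a repressor of the DNA methyltransferase Dnmt1, went from 64.8 and 72.6 to under the floor on both 12 h arrays, at least 5.09-fold lower (log2 difference -2.39 ± 0.16 SE, adjusted p = 4.6e-05). The miR-148 and miR-152 family fell in all 3 members, where 25.4% of all 256 miRNAs fell. miR-148a went from 78.6 and 97.2 to 29.9 and 24.6 (log2 difference -1.69 ± 0.33 SE, adjusted p = 0.0054), and the dim miR-148b from 17.0 and 19.9 to the floor (log2 difference -0.49 ± 0.08 SE, adjusted p = 0.00207). The brightest miRNA on the array, miR-21, an oncogenic miRNA that fibroblasts hold in large amounts, gave 28590.0 and 27510.0 untreated and 15960.0 and 12990.0 at 12 h, 1.95-fold lower (log2 difference -0.96 ± 0.20 SE, adjusted p = 0.00692). miR-22 went from 2391 and 2328 to 1620.0 and 1220.0 (log2 difference -0.75 ± 0.14 SE, adjusted p = 0.00412). miR-31 was the marker that did not pass, at 144 and 144 and 179 and 154 (log2 difference 0.21 ± 0.13 SE, adjusted p = 0.23).

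The miR-26 and miR-30 families fell in every member tested, where 25.4% of all 256 miRNAs fell. All these members were over the floor on all 4 arrays, and of the 149 such miRNAs 30.9% fell. miR-26a gave 681 and 782 untreated and 227 and 184 at 12 h, 3.57-fold lower (log2 difference -1.84 ± 0.22 SE, adjusted p = 0.00086), and miR-26b went from 135 and 149 to 85.5 and 71.6 (log2 difference -0.86 ± 0.26 SE, adjusted p = 0.03). The 5 members of the miR-30 family, which are best known for restraining fibrosis and autophagy genes, had a median difference of -1.03. miR-30c went from 241 and 265 to 145.2 and 106 (log2 difference -1.03 ± 0.17 SE, adjusted p = 0.00265), and miR-30a, the brightest of them, from 476 and 479 to 301 and 273 (log2 difference -0.73 ± 0.10 SE, adjusted p = 0.00128). The others had differences of -1.26 for miR-30b, -1.07 for miR-30e and -0.82 for miR-30d. All had 12 h arrays below both untreated ones, as was so for 41.8% of all miRNAs. The call of miR-26b was lost in 6 of 12 fits that each left out 1 array (adjusted p up to 0.14), that of miR-30e in 6 of them (up to 0.16) and that of miR-30b in 2 (up to 0.0648). With normexp and its offset, the median of the miR-30 family was 0.11 and that of the miR-148 and miR-152 family 0.40, and with the offset taken off again they were -0.56 and -0.83. For the miR-15 and miR-16 family both settings stayed below 0, at -0.42 and -1.14.

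Of the remaining large falls above the floor, miR-100, of the miR-99 and miR-100 family that represses mTOR, went from 75.8 and 81.2 to 19.1 and 25.2 (log2 difference -1.84 ± 0.36 SE, adjusted p = 0.00527). miR-378, made from an intron of the metabolic coactivator gene Ppargc1b, went from 134 and 158 to 46.2 and 34.8 (log2 difference -1.86 ± 0.28 SE, adjusted p = 0.00195). miR-193b went from 65.0 and 64.4 to 18.2 and 20.3 (log2 difference -1.75 ± 0.60 SE, adjusted p = 0.0455), a call that was lost in 10 of 12 fits that each left out 1 array (adjusted p up to 0.15). The bright miR-130a went from 1526 and 1586 to 597 and 509 (log2 difference -1.50 ± 0.17 SE, adjusted p = 0.00058). These 4 had no overlap between the groups. With the scanner software's own total per miRNA, on which the authors' log2 values rest, the differences of miR-100 (3.05) and miR-193b (1.62) were above 0, and so were those of miR-93 (2.08), miR-30b (1.63) and miR-30e (0.42), while that of let-7d* was -2.06.

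Some miRNAs went from a clear signal to none. miR-218, which is carried in introns of the Slit genes, gave 59.8 and 58.6 untreated and was under the floor on both 12 h arrays, at least 4.40-fold lower (log2 difference -2.18 ± 0.61 SE, adjusted p = 0.0225). That call was lost when any 1 of the 4 knockout arrays was left out (adjusted p up to 0.0874). miR-222 went from 37.1 and 51.5 to 16.5 and 11.2, with 1 of the 12 h arrays just above the floor (log2 difference -1.57 ± 0.20 SE, adjusted p = 0.00094). Its seed partner miR-221 went from 287 and 294 to 212 and 151.6 (log2 difference -0.70 ± 0.26 SE, adjusted p = 0.0606), which did not pass. Both arms of the neural miR-9 were in this class. miR-9 gave 27.4 and 31.5 untreated (log2 difference -1.17 ± 0.05 SE, adjusted p = 1e-05) and miR-9* gave 30.2 and 31.5 (log2 difference -1.24 ± 0.19 SE, adjusted p = 0.00195), and both were under the floor at 12 h. Both arms were also at the floor on the untreated and 12 h wild type arrays. Such arrays add no spread, so the SE and p of both arms are made too small. miR-362-5p, of the Clcn5 intron, went from 32.9 and 36.3 to the floor, at least 2.56-fold lower (log2 difference -1.40 ± 0.33 SE, adjusted p = 0.0111), a call lost in 3 of the 12 fits without 1 array (up to 0.06).

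Other abundant families were nearly level on this scale. Of 9 members of miR-17~92 and its paralogs, which drive proliferation, 1 fell and none rose, with a median difference of -0.01. All 9 were over the floor on all 4 arrays. Of the 149 such miRNAs, 30.9% fell and 14.1% rose, with a median of -0.36. miR-20a gave 382 and 367 untreated and 403 and 414 at 12 h (log2 difference 0.12 ± 0.32 SE, adjusted p = 0.85), and miR-92a gave 405 and 407 and 522 and 488 (log2 difference 0.32 ± 0.22 SE, adjusted p = 0.30). The member that fell was miR-93, from 121 and 123 to 89.0 and 86.5 (log2 difference -0.47 ± 0.11 SE, adjusted p = 0.0114), a call that was lost in 3 of 12 fits that each left out 1 array (adjusted p up to 0.0831). Of the 5 miRNAs of the miR-23, miR-27 and miR-24 clusters, all likewise over the floor, 1 fell (25.4% of all 256 did). miR-24 gave 610.1 and 643 and 637 and 554 (log2 difference -0.08 ± 0.09 SE, adjusted p = 0.57). Within these clusters the members differed: miR-23a and miR-27a had differences of 0.37 and 0.42, which did not pass, and miR-23b and miR-27b, from another chromosome, -1.33, which did not pass, and -1.30, which did, though its call was lost in 6 of the 12 fits that left out 1 array (adjusted p up to 0.14). The difference between the clusters was not tested.

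Of 9 let-7 miRNAs, regulators of growth and of Lin28, 2 fell (25.4% of all 256 did), with a median of -0.53. All 9 were over the floor on all 4 arrays, and of the 149 such miRNAs 30.9% fell, with a median of -0.36. let-7i went from 1469 and 1481 to 773 and 677 (log2 difference -1.03 ± 0.24 SE, adjusted p = 0.0107) and let-7c from 1560.0 and 1579 to 1108 and 897 (log2 difference -0.65 ± 0.15 SE, adjusted p = 0.00993). Without 1 array these calls were lost in 3 and in 2 of the 12 fits (adjusted p up to 0.0631 and 0.0616). let-7a, let-7f and let-7g had differences of -0.65, -0.52 and -0.53 and did not pass, nor did let-7b at -0.24. Of 3 miR-29 miRNAs, which repress collagen genes, miR-29a fell (log2 difference -0.30 ± 0.10 SE, adjusted p = 0.0391), a call that was lost in 8 of 12 fits that each left out 1 array (adjusted p up to 0.15), and miR-29b and miR-29c had differences of -0.11 and -0.55. These counts move most with the scaling. With the percentile taken over all mouse miRNAs, 7 let-7 members and 3 of the miR-17~92 list were lower, with medians of -1.37 and -0.85 where the median over all 256 was -0.56. With no scaling, 9 and 6 were lower.

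**Figure D3:**
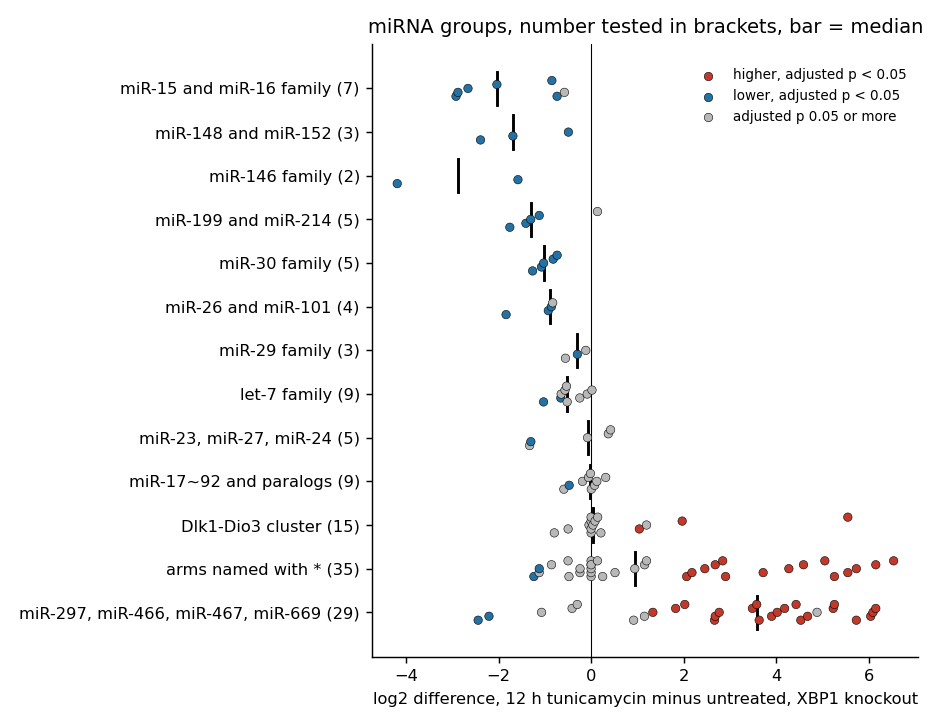
Log2 difference between 12 h of tunicamycin and untreated XBP1 knockout MEFs for each tested member of 13 miRNA groups, with a black bar at the group's median. The medians of the groups of miR-15 and miR-16, of miR-148 and miR-152, of miR-146, of miR-199 and of miR-30 lie left of 0, those of the miR-17~92 and miR-23, miR-27 and miR-24 groups around it, and most members of the families named miR-297, miR-466, miR-467 or miR-669 stand to the right.

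The rises were led by dim miRNAs. miR-877* gave 39.9 and 17.4 untreated and 3243 and 1843 at 12 h, 92.9-fold higher (log2 difference 6.54 ± 1.23 SE, adjusted p = 0.00437). Before scaling its signals were 94.9 and 41.8 untreated and 1427 and 1981 at 12 h. miR-574-3p, made from an intron of Fam114a1, went from 67.4 and 43.9 to 3237 and 2321 (log2 difference 5.66 ± 1.82 SE, adjusted p = 0.0373). That call was lost with no scaling and with the percentile over all mouse miRNAs, and was lost in 8 of 12 fits that each left out 1 array (adjusted p up to 0.14). miR-468 went from 27.3 and 17.3 to 1153 and 879 (log2 difference 5.53 ± 0.97 SE, adjusted p = 0.00322). For all 3 both 12 h arrays were far above both untreated ones. One rise as large, miR-207, falls outside the naming rule, because 1 untreated array was at the floor, and is named after its values were seen: it went from 19.1 and 11.2 to 2335 and 1715 (log2 difference 6.98 ± 1.48 SE, adjusted p = 0.0071).

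The largest group among the rises was a set of families named miR-669, miR-467, miR-466 and miR-297, many of which are encoded in tandem in an intron of the Polycomb gene Sfmbt2. Not all members lie together: of those named below, miR-467g is on chromosome 5, miR-467f on chromosome 11 and miR-466j on chromosome 10. Of 29 tested, 21 rose and 2 fell, with a median difference of 3.58, where 23.8% of all 256 miRNAs rose. In 20 of them none of the 4 arrays was at the floor, and 13 of these were higher and 1 lower. Of the 149 such miRNAs, 14.1% rose. The summed scaled signal of these families was 2263 and 2066 untreated and 20590 and 16372 at 12 h. miR-467b* went from 25.8 and 15.7 to 1592 and 1287 (log2 difference 6.15 ± 1.74 SE, adjusted p = 0.0231). miR-467e* went from 20.1 and 14.9 to 991 and 854 (log2 difference 5.73 ± 1.41 SE, adjusted p = 0.0127), and miR-466h from 20.8 and 17.5 to 381 and 316 (log2 difference 4.18 ± 0.60 SE, adjusted p = 0.00155). The calls of miR-467b* and miR-467e* were lost when any 1 of the 4 knockout arrays was left out (adjusted p up to 0.10 and 0.0648). miR-669c, already the brightest of the 4 untreated, went from 100.4 and 71.7 to 1108 and 817 (log2 difference 3.49 ± 0.72 SE, adjusted p = 0.00625). Many members are near-identical in sequence, and the array cannot be assumed to tell them apart, so their count is not a count of independent changes.

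In the miR-467a and miR-467b precursors the opposite arms moved in opposite directions, and these were the 2 members of the 29 that fell. miR-467b gave 207 and 202 untreated and 56.1 and 34.9 at 12 h (log2 difference -2.21 ± 0.33 SE, adjusted p = 0.00179), while miR-467b*, from the same precursor, rose. miR-467a fell from 65.3 and 77.4 to under the floor, at least 5.28-fold (log2 difference -2.44 ± 0.44 SE, adjusted p = 0.00379), while miR-467a* rose by 2.68. Other members named for the size of their rise had differences of 6.09 for miR-467g, 5.26 for miR-297a*, 5.23 for miR-466g, 4.68 for miR-466i and 4.02 for miR-467f. The calls of miR-466g, miR-466i and miR-467f were each lost in 8 of the 12 fits that left out 1 array, with adjusted p up to 0.15, 0.15 and 0.14, and that of miR-467g in 4 (up to 0.10). Of members at or under the floor untreated, miR-466l gave 86.3 and 80.2 at 12 h and miR-669i 202 and 189, at least 6.36-fold and 14.9-fold higher (log2 difference 2.67 ± 0.15 SE, adjusted p = 2.7e-05 and log2 difference 3.90 ± 0.36 SE, adjusted p = 0.00024). miR-466j, miR-466d-3p and miR-669d had differences of 3.58, 4.53 and 3.63.

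Arms named with an asterisk, which as a rule are the passenger strands, rose more often than they fell as scaled here, though not with no scaling. Of 115 such arms on the array 35 were tested. Of these, 15 rose and 2 fell, with a median of 0.94, where 23.8% of all 256 miRNAs rose and 25.4% fell. An arm not detected in the untreated knockout was tested only because another group gave signal, and from the floor it could not fall. The choice of tested arms thus favours rises in these counts. In 14 arms none of the 4 arrays was at the floor, and 5 of them were higher and 1 lower (median 0.84). Of the 149 such miRNAs, 14.1% rose and 30.9% fell. With no scaling 12 of the 35 arms rose and 16 fell (median -0.21). miR-485*, of the imprinted Dlk1-Dio3 cluster, was under the floor untreated and gave 638 and 588 at 12 h, at least 46.8-fold higher (log2 difference 5.55 ± 1.00 SE, adjusted p = 0.0037). The arms let-7d*, let-7g* and let-7f* rose by 5.05, 2.91 and 2.46, where none of the let-7 guide strands rose. Similarly miR-15a* gave 187 and 159 at 12 h from under the floor (log2 difference 3.72 ± 0.48 SE, adjusted p = 0.00104), where miR-15a fell. miR-483*, from the imprinted Igf2 locus, rose by 4.59. In these 6 arms both 12 h arrays were over 50 and both untreated arrays under the floor.

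The largest rises from under the floor were of miR-1196, miR-197 and miR-1894-5p. miR-1196 gave 1244 and 965 at 12 h, at least 83.7-fold higher (log2 difference 6.39 ± 1.39 SE, adjusted p = 0.00768), miR-197 gave 1092 and 919, at least 76.5-fold (log2 difference 6.26 ± 1.27 SE, adjusted p = 0.00595), and miR-1894-5p gave 738 and 622, at least 51.7-fold (log2 difference 5.69 ± 1.18 SE, adjusted p = 0.00646). miR-764-5p gave 378 and 328, at least 26.9-fold (log2 difference 4.75 ± 0.75 SE, adjusted p = 0.00207). miR-669h-3p and miR-328 had differences of 6.04 and 4.71, the first with a call lost in 3 of the 12 fits without 1 array (up to 0.0551). Of 15 tested miRNAs of the Dlk1-Dio3 cluster, 3 rose (23.8% of all 256 did), none fell, and the median was 0.04. For each miRNA named here the 2 arrays at 12 h lay much closer to each other than to the untreated ones.

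Some signals that a mouse fibroblast would not be thought to give were also higher at 12 h, and others were lower. Of 39 probe sets for viral miRNAs, which no mouse gene encodes, 2 were detected on both 12 h arrays with higher signal than untreated. mghv-miR-M1-2 gave 66.9 and 17.2 untreated and 880 and 264 at 12 h, and mghv-miR-M1-6 gave 2.72 and 2.65 untreated and 79.8 and 64.5 at 12 h. Another set, mcmv-miR-M23-1-5p, was detected on both untreated arrays, at 8.29 and 7.54, and on neither 12 h array, at 1.15 and 5.89, all under the floor. Markers of other cell types did not move in 1 direction. Of 7 muscle markers, miR-206 was the one tested, at 13.0 and 8.81 untreated and 102 and 76.5 at 12 h (log2 difference 2.75 ± 0.46 SE, adjusted p = 0.00265). Of 3 pluripotency miRNAs tested 2 rose (23.8% of all 256 did), miR-294 from under the floor to 184 and 137 (log2 difference 3.60 ± 0.49 SE, adjusted p = 0.00133). It was not detected in the untreated knockout and was tested only because another group gave signal. The summed signal of the 19 pluripotency markers was 56.5 and 38.5 untreated and 457 and 276 at 12 h. Of 7 neural markers tested none rose and 3 fell (25.4% of all 256 did), miR-9, miR-9* and miR-218, with a median of -0.53. Their list summed to 234 and 238 untreated and 93.4 and 81.9 at 12 h. Neither of the 2 liver markers tested passed. The part of such signals in the rises was not tested.

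**Figure D4:**
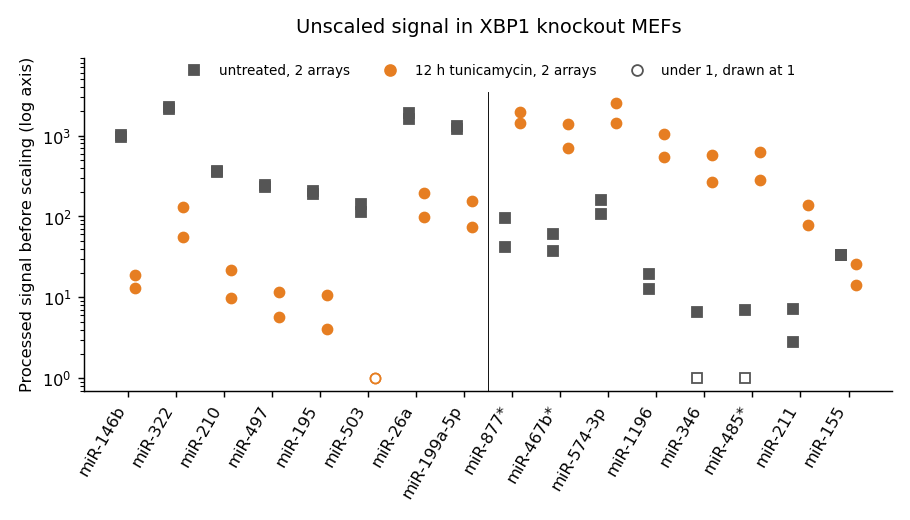
Processed signal before scaling (log axis) of 8 fallen and 8 risen miRNAs on the 2 untreated (grey squares) and 2 treated (orange circles) knockout arrays. The fallen miRNAs are lower at 12 h, and 7 of the 8 risen ones are above the untreated arrays before any scaling, the exception being miR-155. With no scaling the median difference over all 256 miRNAs was -1.53, so a lower unscaled signal does not set the fallen ones apart.

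The rises of miR-155 and miR-720 rest on the scaling. miR-155 gave 14.1 and 13.9 untreated, just over the floor, and 31.9 and 23.8 at 12 h (log2 difference 0.97 ± 0.21 SE, adjusted p = 0.00768). Its difference was 0.14 with the percentile over all mouse miRNAs, -0.03 after quantile normalization and -0.82 with no scaling. Its call was lost in 2 of the 12 fits without 1 array (adjusted p up to 0.055). miR-720, which is thought to be a tRNA fragment and not a miRNA, went from 1566 and 1996 to 3193 and 2654 (log2 difference 0.72 ± 0.22 SE, adjusted p = 0.0294), a call lost in 5 such fits (up to 0.16), and was at -0.12 and -1.08 with the percentile over all mouse miRNAs and with no scaling. miR-196b, of the Hoxa cluster, fell from 278 and 280.4 to 115 and 91.5 (log2 difference -1.45 ± 0.39 SE, adjusted p = 0.0186), a call lost when any 1 of the 4 knockout arrays was left out (adjusted p up to 0.0973).

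miRNAs that have been tied to the unfolded protein response did not move as 1 group. Of 12 listed and tested, 3 rose and 6 fell, with a median of -0.64, where 23.8% of all 256 rose and 25.4% fell. The 3 that rose were not detected in the untreated knockout, so they were tested only because another group gave signal. Of the 7 members over the floor on all 4 arrays, none rose and 4 fell (median -0.70). Of the 149 such miRNAs, 14.1% rose and 30.9% fell, with a median of -0.36. miR-346 was under the floor on both untreated arrays and gave 609 and 534 at 12 h, at least 43.5-fold higher (log2 difference 5.44 ± 1.11 SE, adjusted p = 0.00602), in cells without XBP1. miR-211, described as induced through PERK, went from under the floor to 180.3 and 130.4, at least 11.7-fold higher (log2 difference 3.55 ± 0.52 SE, adjusted p = 0.00172). miR-204, with the same seed, reached 32.5 and 24.3 (log2 difference 1.10 ± 0.31 SE, adjusted p = 0.0231), a call lost after quantile normalization and in 3 of the 12 fits without 1 array (adjusted p up to 0.12). All 3 belong to the dim risers described above, and their untreated signal was within background. The fallen ones were miR-199a-5p, miR-214, miR-222, miR-30d, miR-93 and miR-181a, the last from 23.8 and 26.9 to under the floor (log2 difference -0.95 ± 0.10 SE, adjusted p = 0.00054).

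The miRNAs described as cut by IRE1, whose removal lets the apoptosis protease caspase-2 rise, were followed next, since the nuclease remains in these cells. Of miR-17, miR-34a, miR-96 and miR-125b-5p, 3 were tested. miR-125b-5p fell, from 3197 and 3348 to 1729 and 1498 (log2 difference -1.02 ± 0.15 SE, adjusted p = 0.00179). miR-34a gave 304 and 307 and 254 and 223 (log2 difference -0.36 ± 0.31 SE, adjusted p = 0.40), and miR-96 gave 241 and 255 and 226 and 177 (log2 difference -0.31 ± 0.21 SE, adjusted p = 0.27), and neither passed. In all 3 both 12 h arrays were below both untreated ones, as was so for 41.8% of all miRNAs. The miR-106b~25 cluster, described as repressed through PERK, had differences of -0.59 for miR-106b, -0.47 for miR-93 and -0.19 for miR-25, of which miR-93 passed.

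The same 12 h comparison in wild type cells gave 65 higher and 65 lower of 256 (50.8% called), from other cultures on the same 2 slides. Of the 61 miRNAs that rose in the knockout, 57 rose in wild type (93.4% of the knockout's list and 87.7% of the wild type's). Of the 65 that fell, 49 fell in wild type (75.4% of both lists), and 1, miR-196b, rose there. The large rises were of similar size in both genotypes: miR-877* had 6.54 in the knockout and 6.91 in wild type, and miR-346 had 5.44 and 5.40. The test of the difference between the responses gave 15 miRNAs (5.86%), 6 with a higher (2.34%) and 9 with a lower (3.52%) value in the knockout.

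Among these were again miR-195 and miR-497. In wild type miR-497 gave 44.5 and 42.9 untreated and 24.1 and 30.0 at 12 h, so that its wild type difference was -0.70 and its knockout difference -2.92 (difference between them -2.22 ± 0.33 SE, adjusted p = 0.0116). miR-195 gave 33.6 and 34.3 and 16.6 and 28.3 in wild type, a difference of -0.65 against -2.66 (-2.01 ± 0.31 SE, adjusted p = 0.0116). Both were higher in the knockout than in wild type untreated and lower at 12 h, so the order of the genotypes turned. miR-210 gave 37.5 and 36.6 untreated in wild type and was under the floor at 12 h, so its wild type difference of -1.50 is a bound (-1.31 ± 0.15 SE, adjusted p = 0.00498). miR-196b gave 23.4 and 41.6 at 12 h in wild type and was under the floor untreated (-2.70 ± 0.55 SE, adjusted p = 0.0337). miR-30a stayed at 235 and 230.1 and 216 and 217 in wild type (-0.63 ± 0.14 SE, adjusted p = 0.0486), and miR-155 went from 96.6 and 100.6 to 72.6 and 66.9 (1.48 ± 0.30 SE, adjusted p = 0.0337).

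Of these 15 miRNAs, miR-155 and miR-30a alone had a signal over the floor on each of the 8 arrays. In 6, among them miR-503, miR-9 and miR-532-5p, both genotypes were at the floor at 12 h, so that the difference between responses equals the difference between the untreated levels. miR-503, for example, differed by 1.23 between untreated knockout and wild type and by -1.23 in its response. The count of 15 was 29 with no scaling, 8 with the percentile over all mouse miRNAs, and 0 with normexp and the offset taken off again (0 of 256 in limma's moderated test, where 12 had an unadjusted p under 0.05), and it was 5 without the first 12 h knockout array and 31 without the first 12 h wild type array.

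**Figure D5:**
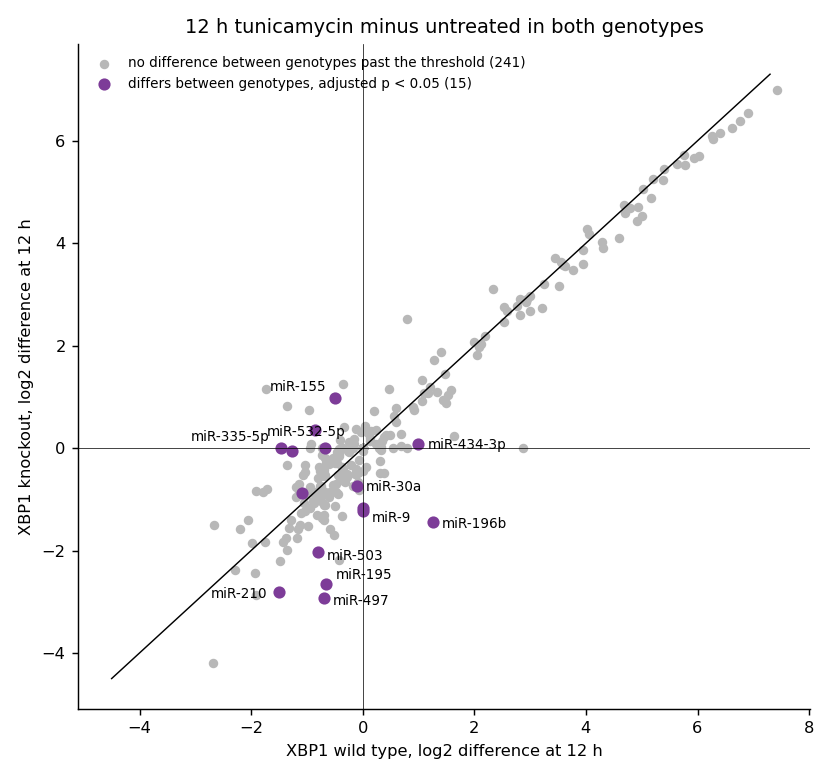
Log2 difference between 12 h of tunicamycin and untreated in wild type (x axis) and XBP1 knockout (y axis) MEFs for 256 miRNAs, with the line of equal difference. The risen miRNAs lie along that line, and the 15 miRNAs whose responses differed between genotypes (purple) are among the fallen or small differences, with miR-497, miR-195 and miR-503 below the line.

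At 24 h the 2 knockout arrays stood apart for the risen miRNAs drawn above other than miR-155, replicate 1 near the untreated level and replicate 2 between the untreated and 12 h levels. The 24 h comparison uses the same untreated arrays, so its values are only set beside those at 12 h. miR-877* gave 31.5 and 451 in the 24 h arrays, against 3243 and 1843 at 12 h, and miR-574-3p gave an under-floor signal and 827, against 3237 and 2321. miR-346 gave an under-floor signal and 87.5. The median difference of the 61 risen miRNAs was 3.60 at 12 h and 0.41 at 24 h, and that of the 65 fallen ones was -1.17 and -0.50. The strongest falls stayed low: miR-146b gave 40.1 and 43.3 at 24 h, miR-210 32.8 and 33.9 and miR-322 198 and 247, each still well under the untreated level. miR-503 was under the floor on both 24 h arrays. In contrast miR-199a-5p gave 236 and 440.0 and miR-100 41.1 and 84.9 at 24 h, and the 24 h arrays of both stood apart from each other.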

How the data were processed

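The members and lists were chosen with earlier results of these data known. Total RNA carried a direct Cy3 label on 1-colour Agilent miRNA arrays, per the labels' protocols. The authors' deposited scanner files hold spot intensity values from Agilent Feature Extraction 10.7.1.1, background-subtracted and not normalized between arrays, per the file headers. The deposited series table holds the authors' log2 values, equal to log2 of the software's total signal per miRNA to within 1.15e-06. No genome build is given in the sources used here.

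Spots of 1 probe were averaged without outlier spots, probes of a miRNA were summed, arrays were scaled to 1 75th percentile over 95 miRNAs detected on all 12 arrays, and values under the floor of 13.1 were raised to it. A model with a mean for each of the 6 groups was fitted with limma 3.58.1 (R 4.3.3) with an intensity trend, with Benjamini-Hochberg adjustment over 256 miRNAs. For a fold of "at least", the divisor was, on each array of the dim group, the highest of the floor, the lowest detected signal of that array and the miRNA's own value. No spot was saturated. The scripts were tested on simulated data.

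miRNAs are named by rule: the 12 largest rises and falls above the floor on all 4 arrays, the 10 largest from or to the floor, the 10 brightest untreated, up to 5 members of each list by p and all of the stress lists, those past the threshold between genotypes, and viral probe sets. Alternatives were other scalings, background correction, floors, filters, tools' totals, blocks and leaving out each array. The files have no mean signal column, so normexp used the median spot signal.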

Additional observations from a re-analysis of the deposited data

Results flagged for a closer look

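The response to 12 h of tunicamycin differed between the genotypes for 15 miRNAs in limma's test of the interaction, given here as the knockout's log2 difference minus the wild type's. Those with a lower value in the knockout were miR-196b (-2.70), miR-497 (-2.22), miR-195 (-2.01), miR-210 (-1.31), miR-9* (-1.24), miR-503 (-1.23), miR-9 (-1.17), miR-434-3p (-0.91) and miR-30a (-0.63). Those with a higher value were miR-155 (1.48), miR-335-5p (1.46), miR-532-5p (1.21), miR-290-5p (1.20), miR-532-3p (0.67) and miR-542-5p (0.22). Of these 15, 13 had at least 1 value at the floor among the 8 arrays compared.

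Among the probe sets for viral miRNAs, which enter no comparison of mouse miRNAs, mghv-miR-M1-2 was higher at 12 h than untreated by 3.83 on the log2 scale and mghv-miR-M1-6 by 2.45 in the knockout arrays.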

How the results depend on the processing

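In the knockout at 12 h, the count of 126 (61 higher, 65 lower) stayed within 1.5 times of itself in every alternative except 3. It was 196 with no scaling and, with other miRNAs or values tested, 48 of the 95 detected on all 12 arrays and 74 with normexp and its offset taken off again, a setting chosen after seeing the data. In the fits that left out 1 array it ran from 86 to 144. The wild type count of 130 was 40 among the 95, and ran from 85 to 148 without 1 array. The genotype difference, 15 miRNAs, was the least stable: 8 with the percentile over all mouse miRNAs, 29 with no scaling, 6 with normexp and offset, 26 with the software's totals or the authors' log2 values, 7 with floor values left out, 1 among the 95, 6 with no filter, 31 with only the groups compared, 0 with the offset taken off again, and 5 to 31 without 1 array. With 1 array left, a group is assumed to vary like the others.

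Of 104 miRNAs named for the knockout comparison, 26 lost the call in at least 1 fit without 1 array and none turned. The 104 include miRNAs that did not pass with all 12 arrays, such as let-7a, miR-34a and miR-31, and so had no call to lose. Some of the 104 gained a call when a 24 h knockout array was left out. The labels do not say that a replicate number marks a shared experiment. With the replicate block, 127 (61 higher, 66 lower), 130 and 12 miRNAs passed in the knockout, in wild type and between genotypes, and same-numbered knockout arrays deviated from their group means together (r = 0.338 over 149 miRNAs). With the scan as a random block the knockout count was 128. No scan held both untreated and tunicamycin arrays, so this block cannot take a scan effect out of the comparison.

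The software's total per miRNA, on which the authors' log2 values rest, equalled the sum of its own detected probes for all 1394 values with every probe detected over the 12 arrays. Of 795 values with a probe not detected, 688 exceeded it, 683 of them by the total of another miRNA, to within 0.5%. With these totals, knockout differences turned for miR-100 (3.05), miR-193b (1.62), let-7d* (-2.06), miR-93 (2.08), miR-30b (1.63), miR-30e (0.42), miR-290-5p (-2.76) and miR-434-3p (-0.21), and genotype differences for miR-503 (0.78), miR-155 (-0.35) and miR-290-5p (-1.45). The added sum of the software's probe signals, which lacks that excess, gave 124 calls, 118 of them shared with the 126.

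Scaling turned these knockout differences: miR-720 (-1.08), miR-23a (-1.43), miR-27a (-1.38), miR-155 (-0.82), miR-31 (-1.59) and miR-290-5p (-1.45) with none, miR-155 (-0.032) and miR-31 (-0.52) with quantile normalization, and miR-720 (-0.12) with the percentile over all mouse miRNAs. The genotype difference of miR-542-5p became -0.53, -0.088 and -0.17 in that order, and -0.052 with outlier spots kept. Normexp adds its offset before arrays are scaled by unequal factors, so dim miRNAs gain most on the arrays with large factors. It turned miR-100 (0.40), miR-193b (0.51), miR-148a (0.31), miR-146a (0.19), miR-497 (0.10), miR-195 (0.24), miR-467a (0.36), miR-152 (0.40), miR-218 (0.49), miR-503 (0.46), miR-222 (0.78), miR-362-5p (1.14), miR-9* (0.92), miR-9 (0.88), miR-181a (0.85), miR-30d (0.11), miR-93 (0.39), miR-30b (0.60), miR-30e (0.45), miR-29c (0.85), miR-26b (0.16), miR-148b (0.90), miR-542-5p (1.22) and miR-532-5p (0.86), and between genotypes miR-542-5p (-0.15), miR-532-5p (-0.28), miR-290-5p (-0.063) and miR-335-5p (-0.34). With the offset taken off again, miR-362-5p (0.19), miR-148b (0.29) and miR-542-5p (0.24) still turned, as did, between genotypes, miR-542-5p (-1.07), miR-532-5p (-0.69), miR-290-5p (-0.65), miR-335-5p (-0.73) and miR-532-3p (-0.92); the cause was not tested.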
